A study of Mus musculus with 9 samples.

Results

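The comparison of mice homozygous for a deletion of TAAR enhancer 2 (homo) with wild-type (WT) mice rests on 6 of the 9 libraries of the series, 3 per genotype. All genes in the table of raw counts were compared, and the account below is of genes outside the 14 olfactory Taar genes. The mice are labelled C57BL/6 (the study's animal summary describes its lines as of mixed C57BL/6J and 129 background) and were at postnatal day 14, and RNA was made from the whole main olfactory epithelium (MOE). The homo mice carried the deletion on both alleles (TAAR enhancer 2 -/-) and the WT mice on neither, and no other allele or agent is given for either group. The mutant mice derived from a single CRISPR-Cas9 deletion line, so a change elsewhere in the genome of that line cannot be told apart from the deletion. The mice were littermates of both sexes, and the sex of each was not given. The paper's captions give n = 3 mice for this RNA-seq, which with 3 libraries per genotype is 1 mouse per library. The 3 heterozygous (het, TAAR enhancer 2 +/-) libraries entered the fit, where they shared the estimate of the spread between libraries, and their levels are given only as context. The p-values and intervals therefore measure the spread between these libraries.

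The MOE lines the dorsal and posterior nasal cavity. Its olfactory sensory neurons (OSNs) are renewed through life from basal stem cells, passing from dividing globose basal cells through immature neurons to mature neurons that send an axon to the olfactory bulb. Each mature OSN expresses essentially a single receptor gene, in most neurons an odorant receptor gene and in a small population a gene of the trace amine-associated receptor (TAAR) family. Sustentacular cells support the neurons, horizontal basal cells are the reserve stem cells, and Bowman glands secrete mucus. In a dissected MOE these cells come with respiratory epithelium, connective tissue, turbinate cartilage and bone, vessels and blood cells. In such bulk samples, fewer cells of a type and less RNA per cell cannot be told apart.

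Total counts of the 6 libraries ranged from 20527992 to 32262005, with a median of 27072996. WT replicate 3 stood apart. In it 480 genes were more than 2-fold above all 8 other libraries, against 0 to 9 genes in each of the others. Its distances to the other 5 libraries, as the root mean square of the 500 largest log2 differences, were 3.02 to 3.80, against 1.65 to 2.47 for the pairs without it. Results that it moved most are therefore also given without it. Transcripts of Xist, which is expressed from the inactive X chromosome, were high (2460 to 3080 CPM) in 2 WT and 2 homo libraries, and the Y-linked genes Ddx3y, Kdm5d, Uty and Eif2s3y were expressed in the remaining library of each genotype, WT replicate 3 and homo replicate 1. The libraries of replicate number 1 also differed from numbers 2 and 3 in both genotypes. Some lists are given within these numbers for that reason. Without WT replicate 3, WT holds only replicates 1 and 2, both with high Xist, against homo replicates 1, 2 and 3. In values without it, sex and replicate number are therefore unbalanced between the genotypes. Their part in those values was not tested.

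Taar6, the gene beside the deleted element, checked the labels. Its level was 6.57, 6.62 and 6.27 CPM (read counts scaled to 1e+06 of normalized library size) in WT replicates 1, 2 and 3 and 0.635, 0.610 and 0.743 CPM in the homo replicates, so that the genotypes were far apart. It had a log2 fold change of −3.28 (95% interval −3.76 to −2.80).

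Outside the olfactory Taar genes, no gene passed the test in homo against WT. Of 19775 genes tested, 4 (0.0202%) had an edgeR adjusted p under 0.05 with a fold change over 1.5, and all 4 were olfactory Taar genes. The edgeR count outside them was 0, where 672 genes had an unadjusted p under 0.05 and the smallest edgeR adjusted p was 1. The 672 were fewer than the 988 expected by chance at that limit. This depended on the fit, since a batch term for replicate number 1 gave 1309 and a term for each replicate number gave 1297. DESeq2 called 6 of 19717 genes (0.0304%), of which 1, Lrrc26, lay outside the Taar genes. Without WT replicate 3 the edgeR count outside the Taar genes was again 0, the smallest edgeR adjusted p was 0.194, and 330 genes had an unadjusted p under 0.05. The number at an unadjusted p under 0.05 was also moved by other libraries, to 1237 without WT replicate 1, 1394 without WT replicate 2, 337 without homo replicate 2 and 185 without homo replicate 3. The count of 4 called genes was 1 on leaving out number 2 or number 3 of any of the 3 genotypes, and 2 without homo replicate 1.

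Most genes lay close to no change. The median log2 fold change outside the Taar genes was 0.0041 with quartiles of −0.13 and 0.11. As point estimates, 87.5% of the genes lay within 1.5-fold and 93.8% within 2-fold. The rest were mostly lower in homo. At a mean of at least 1 CPM, 404 genes were more than 2-fold lower and 9 more than 2-fold higher. WT replicate 3 was the highest of the 6 libraries for 377 of the 404. Without that library 49 of the 404 genes were still more than 2-fold lower and 114 more than 1.5-fold lower, while of the 9 higher genes 5 were still more than 2-fold higher. Of the 672 genes at an unadjusted p under 0.05, 154 were higher and 518 lower, and without WT replicate 3 there were 116 higher and 214 lower. The plot of fold change against level shows this downward tail with WT replicate 3 and its loss without it.

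**Figure D1:**
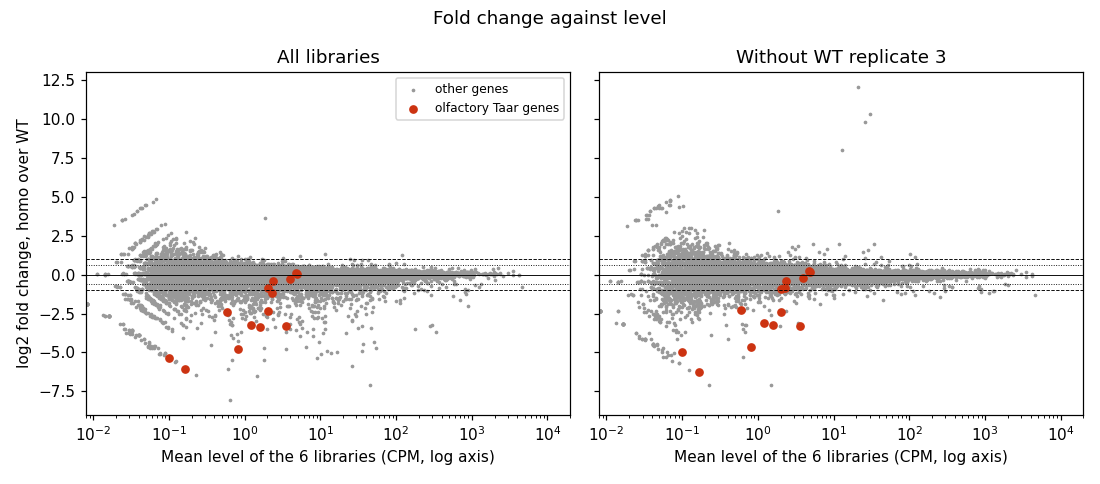
Log2 fold change of homo over WT (vertical axis) against the mean level of the 6 libraries in CPM (horizontal log axis) for each gene with reads in them, fitted with all libraries (left) and without WT replicate 3 (right). Red points are olfactory Taar genes, grey points all others, dotted and dashed lines mark 1.5-fold and 2-fold, and of the 404 genes below the lower dashed line at 1 CPM or more on the left 49 were still below it on the right. The 4 highest points on the right are the Y-linked genes Ddx3y, Kdm5d, Uty and Eif2s3y, which were expressed in no other WT library than replicate 3.

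A gene without a call can still have changed, so each gene was given the 95% interval of its fold change, and a change of a given size was taken as excluded where the whole interval lay inside it. The intervals hold per gene and not jointly, so a count of genes is no joint exclusion at 95%. A 1.5-fold change was excluded for 9926 of the 19775 genes (50.2%) and a 2-fold change for 14092 (71.3%). Without WT replicate 3 the shares were 50.5% and 71.9%. These shares differed with the level of the genes. Under 1 CPM a 1.5-fold change was excluded for 0% of 3598 genes and a 2-fold change for 3.25%. Between 1 and 10 CPM the shares were 20.7% and 66.4% of 4632 genes, between 10 and 100 CPM 75.1% and 93.7% of 8865 genes, and between 100 and 1000 CPM 86.6% and 97.1% of 2638 genes. Above 1000 CPM the shares were lower again, 57.1% and 81.0% of 42 genes. The median standard error of the log2 fold change was 0.75 under 1 CPM and 0.12 between 100 and 1000 CPM.

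**Figure D2:**
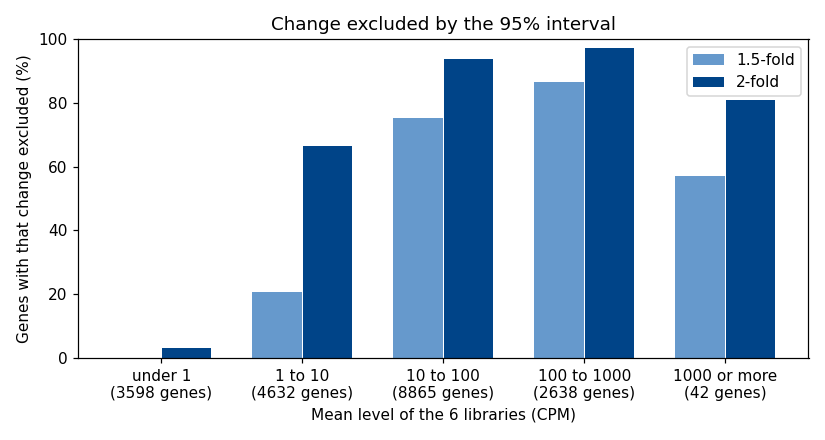
Share of tested genes (vertical axis, percent) for which the 95% interval excluded a change of 1.5-fold (light bars) or 2-fold (dark bars), by mean level of the 6 libraries in CPM (horizontal axis, with the number of genes). A 2-fold change was excluded for 93.7% of genes at 10 to 100 CPM and for 3.25% of genes under 1 CPM.

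Lrrc26, an auxiliary subunit of the BK potassium channel that is found in secretory epithelia, was the gene outside the Taar family with the smallest p. Its level was 14, 14 and 13.3 CPM in the WT libraries and 9.29, 7.82 and 7.81 CPM in the homo libraries, and the het libraries held 12.7, 10.5 and 12.2 CPM. Every homo library lay below every WT library, which held for 2.71% of all genes tested. The homo mean was 60.3% of the WT mean, with a log2 fold change of −0.73 (95% interval −1.03 to −0.43, edgeR p 3.77e-04, edgeR adjusted p 1). The DESeq2 adjusted p was 0.00156, and over all alternatives the adjusted p ranged from 0.00156 to 1. The gene lies on chromosome 2 from 25289915 to 25291180 on the plus strand (GRCm38).

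The other genes with the smallest p-values also had an edgeR adjusted p of 1, and none passed the test. Among those lower in homo, F5, which encodes coagulation factor V, stood at 14.4, 8.57 and 13.2 CPM in WT and 7.89, 4.52 and 4.72 CPM in homo (log2 fold change −1.08, SE 0.28). Ehf, an epithelial transcription factor of the ETS family, stood at 105, 103 and 125 CPM in WT and 85.8, 70.4 and 66.0 CPM in homo (log2 fold change −0.59, SE 0.16). For both genes every homo library lay below every WT library, which held for 2.71% of all genes tested. The remaining genes of this direction were Gm12250, 1700024G13Rik, Fndc7, Ttc16 and Neurl2, with log2 fold changes from −2.36 (Gm12250, which RefSeq annotates as the protein-coding gene Irgb10, an interferon-inducible GTPase, and GENCODE vM21 as a processed pseudogene) to −0.37 (Ttc16). Without WT replicate 3, the highest library for Gm12250, its value was −1.47.

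Among the genes higher in homo, Pcdh10, a protocadherin of OSN axons, stood at 69.8, 64.5 and 57.8 CPM in WT and 99.8, 81.4 and 118 CPM in homo (log2 fold change 0.64, SE 0.16). Ksr2, a scaffold of the RAS and ERK pathway, stood at 66.6, 69.0 and 48.0 CPM in WT and 94.5, 90.7 and 110 CPM in homo (0.69, SE 0.19). In both genes every homo library lay above every WT library, which held for 2.97% of all genes tested. In het replicates 1, 2 and 3 Ksr2 was at 96.2, 96.5 and 62.5 CPM, a spread from the WT to the homo range. Lect1 (chondromodulin) and Clec3a, both known from cartilage, had log2 fold changes of 1.01 (SE 0.28) and 1.33 (SE 0.39). The other genes were Olfr571, an odorant receptor gene, E030013I19Rik, an antisense transcript whose reads cannot be told from those of its partner since the strand setting of the counting is not stated, Tac4, which encodes a tachykinin, and Susd5, with values from 0.41 to 0.75.

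**Figure D3:**
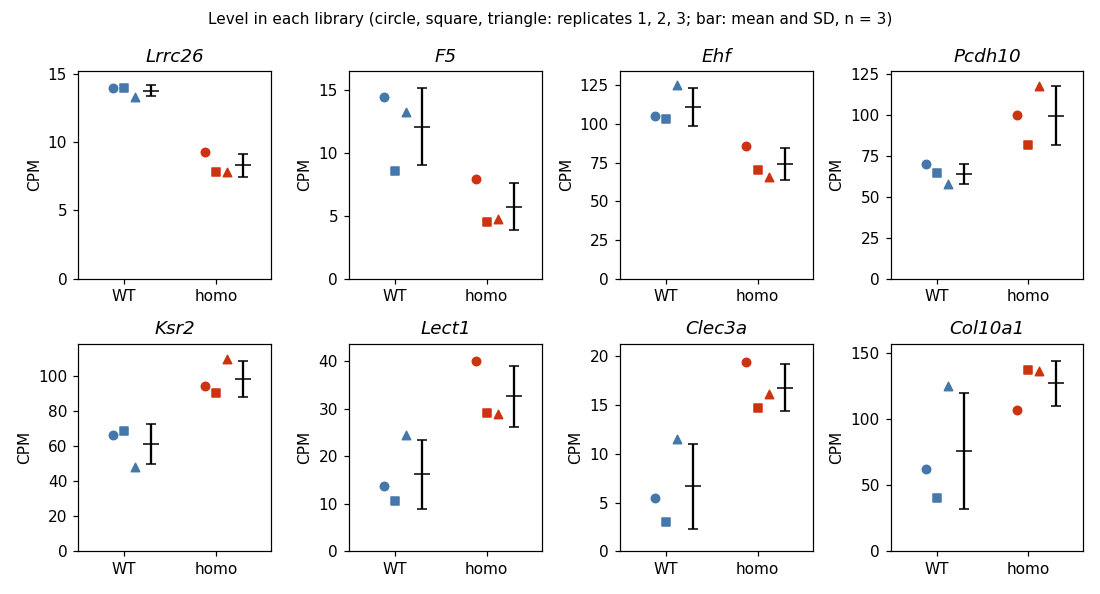
Level in CPM (vertical axes, starting at 0) of 8 genes in each WT library (blue) and homo library (red), with the mean and SD (n = 3) as black bars. The genotypes did not overlap for Lrrc26, F5 and Ehf (lower in homo) or for Pcdh10, Ksr2, Lect1 and Clec3a (higher in homo), while for Col10a1 WT replicate 3 lay within the homo range. All but Col10a1 were picked for a small p in these libraries. Of all genes tested, 2.71% were lower and 2.97% higher in homo without overlap.

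Cell types, neuronal maturation, stress and signalling were read from 41 lists of marker and pathway genes, of which 464 genes were tested. None of these genes was called by edgeR or DESeq2, with 8 higher and 36 lower at an unadjusted edgeR p under 0.05, against 0.779% and 2.67% of all genes tested in the same directions. Without WT replicate 3 the numbers were 11 and 6, against 0.591% and 1.14% of the genes tested in that fit. A 1.5-fold change was excluded for 196 (42.2%) and a 2-fold change for 318 (68.5%) of the 464 genes. The median log2 fold change was within 0.25 of 0 in 28 of the 41 lists, and in 30 without WT replicate 3.

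**Figure D4:**
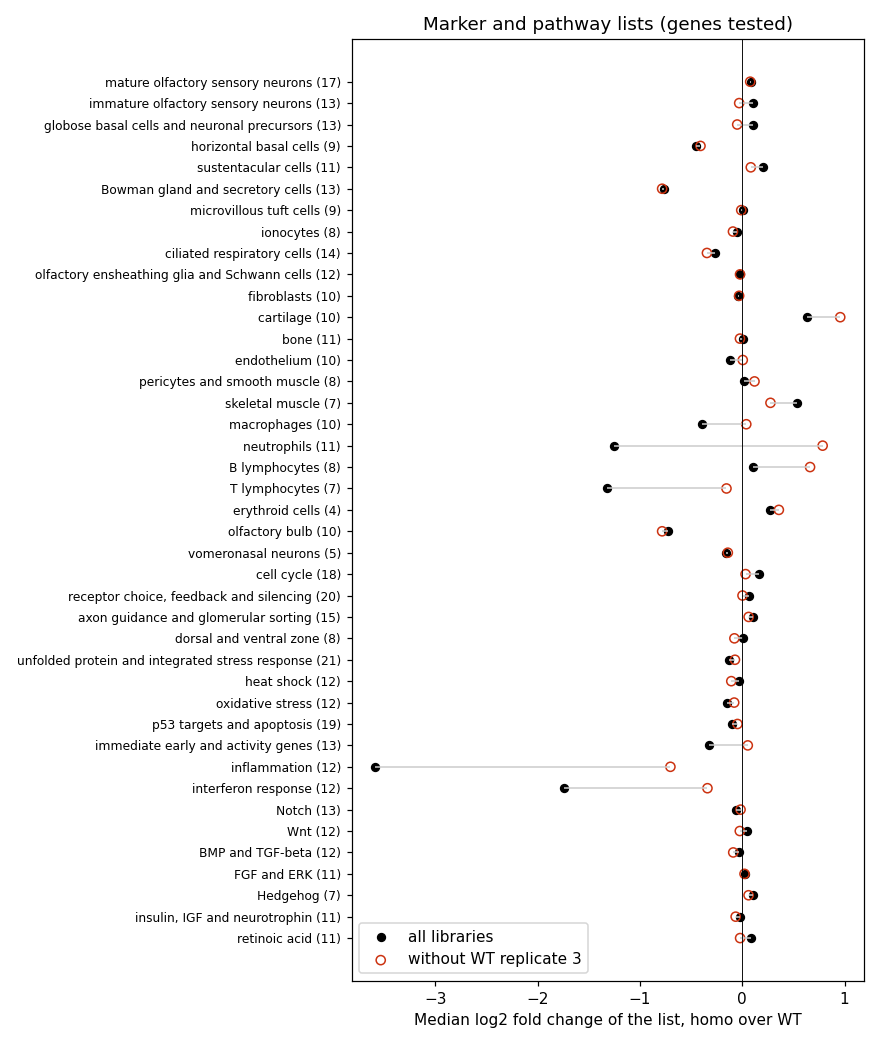
Median log2 fold change of homo over WT (horizontal axis) of the tested genes of each list (vertical axis, with their number), with all libraries (black) and without WT replicate 3 (open red circles). The 3 lists farthest below 0 with all libraries, inflammation, interferon response and T lymphocytes, moved to −0.70, −0.34 and −0.15. Bowman gland and secretory cells (−0.77 and −0.78), olfactory bulb (−0.73 and −0.78) and cartilage (0.63 and 0.96) were among those away from 0 in both. Over all alternatives the olfactory bulb median ranged from −1.36 to −0.08.

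Mature OSN markers, which check the labelled tissue, were high in every library and lay close to no change with narrow intervals. Omp, the olfactory marker protein of mature neurons, stood at 2130, 2090 and 2110 CPM in WT and 2000, 2390 and 2150 CPM in homo. Its log2 fold change was 0.05 (95% interval −0.20 to 0.30), which is between 0.868-fold and 1.23-fold of WT. Gnal, the G protein subunit that couples odorant receptors, and Adcy3, the cyclase that it activates, had log2 fold changes of 0.09 each, with 95% intervals from −0.16 to 0.33 and from −0.13 to 0.32. None of the 17 genes of the list was called, 16 were higher and 1 lower, and the median log2 fold change was 0.09 (0.08 without WT replicate 3), beside 0.0041 over all genes. For 15 of the 17 a 1.5-fold change was excluded. The widest limit was that of Gng13, a G protein subunit, at 2.62-fold, and its levels were 206 and 207 CPM in the replicates numbered 1 against 74.2 to 106 CPM in the others. Summed over the list, the level was 9230, 9760 and 9540 CPM in WT and 9600, 10600 and 9810 CPM in homo, with 105% of WT in homo (95% interval 96.5% to 115%). Slc17a6, the vesicular glutamate transporter of OSNs, had the largest value of the list at 0.28 (SE 0.14), and 0.14 without WT replicate 3.

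Immature neurons and their precursors varied more between libraries of the same genotype than between genotypes. Gap43, a growth cone protein of immature OSNs, stood at 293, 189 and 149 CPM in WT and 283, 205 and 205 CPM in homo (log2 fold change 0.13, 95% interval −0.44 to 0.71). Gng8 and Tubb3, further markers of this stage, had values of 0.17 and 0.15. Over 13 genes of immature OSNs the median was 0.10, and −0.03 without WT replicate 3. Their summed level in homo was 107% of WT (95% interval 86.1% to 133%), and 98.8% without that library. Within replicate numbers 1 and 2 the log2 difference of this sum was −0.0073 and −0.0013, and within number 3 it was 0.30. For 8 of the 13 genes a 1.5-fold change was excluded and for all 13 a 2-fold change.

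Among the precursors, Neurog1, a proneural transcription factor of the dividing stage, and Neurod1, a factor of the step that follows, had log2 fold changes of −0.07 and 0.16. Neurog1 stood at 24, 6.18 and 5.71 CPM in WT and 19, 7.75 and 7.36 CPM in homo, so that the replicates numbered 1 were the highest in both genotypes and the interval was wide (0.336-fold to 2.71-fold). Over 13 genes the median was 0.11 and without WT replicate 3 −0.05, and none was called. The summed level was 110% of WT (95% interval 79.5% to 153%) and 95.7% without WT replicate 3 (77.4% to 118%). WT replicate 3 was the lowest of the 6 libraries for this sum, at 784 CPM against 1090 to 1290 CPM.

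Proliferation and the balance between stages also held no called gene. Of 18 cell cycle genes 17 were higher in homo, with a median of 0.16, and 12 were higher without WT replicate 3, with a median of 0.03. Mki67, a protein of dividing cells, stood at 276, 257 and 164 CPM in WT and 323, 260 and 269 CPM in homo (0.29, SE 0.18). For Pcna, the sliding clamp of DNA replication, the whole interval lay between 0.943-fold and 1.18-fold of WT. A 2-fold change was excluded for all 18 genes. The ratio of summed immature to mature markers was 0.419 ± 0.0709 in WT and 0.424 ± 0.0476 in homo (SD, n = 3 each), a difference smaller than the spread in either genotype. The ratio of precursor to mature markers was 0.112 ± 0.029 in WT and 0.115 ± 0.0149 in homo.

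Genes of receptor choice, silencing and axon sorting were close to 0 as well. Lhx2 and Ldb1, a transcription factor and its cofactor at receptor gene enhancers, had log2 fold changes of 0.05 and 0.02, and Kdm1a, the histone demethylase needed to activate a receptor gene, had −0.02 (95% interval −0.19 to 0.16). Over 20 genes of this list the median was 0.07, and 0.0026 without WT replicate 3. A 1.5-fold change was excluded for 16 and a 2-fold change for 20 of them. For Lhx2 the limit was 1.75-fold, and its levels were 374 and 361 CPM in the replicates numbered 1 against 183 to 214 CPM in the others. Nqo1 and Acsm4, markers of the dorsal zone, and Ncam2, of the ventral zone, had values of 0.01, 0.21 and 0.20, with a median of 0.0071 over 8 zone genes (−0.08 without WT replicate 3). Among 15 genes of axon guidance and glomerular sorting the median was 0.11 (0.06 without WT replicate 3). Pcdh10, given above, was the 1 member with an unadjusted edgeR p under 0.05, and Kirrel2, an adhesion molecule that varies with the activity of the receptor, was next at 0.48 (SE 0.22). Kirrel2 stood at 295, 261 and 164 CPM in WT and 308, 294 and 404 CPM in homo, and was 0.26 without WT replicate 3. Across the 7 neuronal lists together, 104 genes were tested, 1 had an unadjusted edgeR p under 0.05, and a 1.5-fold change was excluded for 67 (64.4%) and a 2-fold change for 98 (94.2%). The median was 0.09, and 0.02 without WT replicate 3.

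The olfactory Taar genes took 1.03%, 1.07% and 1.29% of all Taar and odorant receptor reads in WT and 0.497%, 0.510% and 0.501% in homo, a difference of 0.628 percentage points. All receptor reads per read of the mature markers were 0.376 ± 0.0204 in WT and 0.405 ± 0.0315 in homo (SD, n = 3 each), with overlapping libraries. Per gene, 897 of 1088 odorant receptor genes had a value above 0 in homo, with a median of 0.21 and 0.18 without WT replicate 3. None of them was called. At an unadjusted edgeR p under 0.05, 37 odorant receptor genes were higher and 0 lower (25 and 1 without WT replicate 3), and for 102 every homo library lay above every WT library, beside 0.779% and 2.97% of all genes tested.

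**Figure D5:**
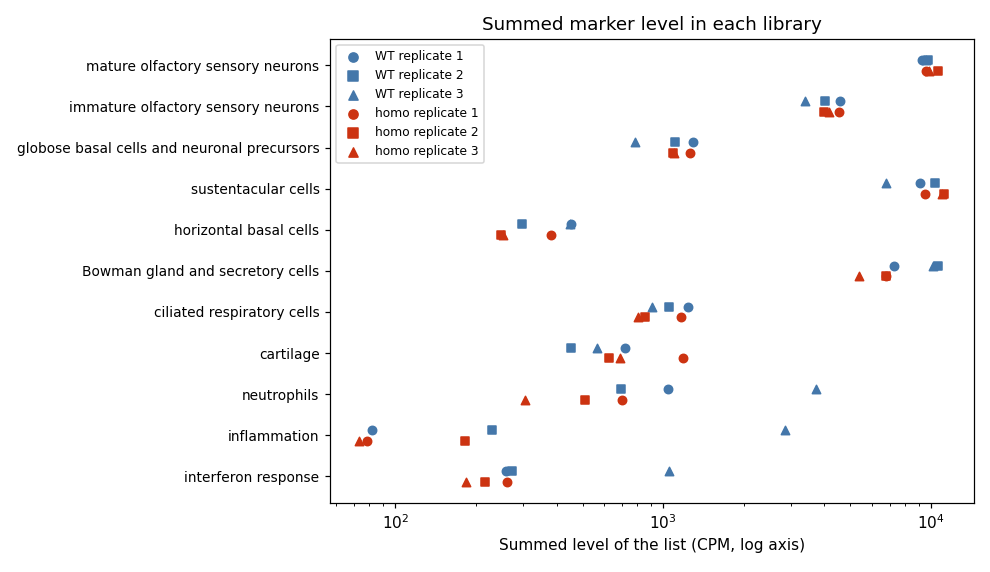
Summed level in CPM (horizontal log axis) of 11 lists (vertical axis) in each WT library (blue, upper points) and homo library (red, lower points), with a symbol for each replicate number. The genotypes did not overlap for Bowman gland and secretory cells (7260 to 10600 CPM in WT, 5380 to 6760 CPM in homo), and WT replicate 3 stood alone for neutrophils (3720 CPM), inflammation (2840 CPM) and interferon response (1050 CPM).

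Of the other epithelial cells, secretory genes lay lowest. The Bowman gland and secretory list had 12 of 13 genes lower in homo, with a median of −0.77, and −0.78 without WT replicate 3. None was called and 1 had an unadjusted edgeR p under 0.05. The summed level was 7260, 10600 and 10200 CPM in WT and 6760, 6760 and 5380 CPM in homo, so the genotypes did not overlap. The p53 target and apoptosis list was the only other of the 41 lists with sums that did not overlap, at 93.3% of WT in homo. For the secretory list homo held 67.9% of WT (95% interval 48.9% to 94.5%, and 47.7% to 107% without WT replicate 3). The het libraries held 7730, 7630 and 9890 CPM. Within replicate number 1 the log2 difference of the sum was −0.10, and in numbers 2 and 3 together it was −0.79. Obp2a, an odorant-binding protein, stood at 990, 1080 and 1080 CPM in WT and 954, 370 and 365 CPM in homo (−0.90, SE 0.45), and Obp1a, another, at 884, 2890 and 993 CPM in WT and 260, 1700 and 808 CPM in homo (−0.78, SE 0.77). The airway mucin Muc5b was at 2400 CPM in WT replicate 3 and between 433 and 619 CPM in the other 5 libraries, and its value of −1.12 became 0.07 without that library. Lcn4, a lipocalin, had the largest value, −1.62 (SE 0.75), and −1.08 without WT replicate 3. The members differed from each other. A 1.5-fold change was excluded for 2 of the 13, and the median limit of the list was 3.57-fold.

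Horizontal basal cell genes were also lower. All 9 genes had a negative value, with a median of −0.46, and without WT replicate 3 8 of 9 did, with a median of −0.41. The number lower at an unadjusted edgeR p under 0.05 was 3, beside 2.67% of all genes tested, and 0 without WT replicate 3. Krt5, a basal keratin, stood at 101, 37.8 and 43.0 CPM in WT and 63.7, 34.5 and 34.6 CPM in homo (−0.45, SE 0.41). Krt14, its partner, stood at 29.3, 18.9 and 26.8 CPM in WT and 21.2, 16.1 and 17.4 CPM in homo (−0.46, SE 0.20). Trp63, the transcription factor that maintains these cells, had −0.19 (SE 0.21). Icam1, which is also a gene of inflammation, was at 49.2 CPM in WT replicate 3 and at 4.87 to 10.4 CPM in the other 5 libraries, and its −1.73 became −0.48 without that library. Ciliated respiratory cells had 12 of 14 genes lower, with a median of −0.27 and without WT replicate 3 −0.35. Dnah5, a dynein of motile cilia, stood at 158, 134 and 76.9 CPM in WT and 136, 56.7 and 56.6 CPM in homo (−0.56, SE 0.39), and Foxj1, the master regulator of motile cilia, had −0.26 (SE 0.41). The share of such non-sensory tissue in each dissection was not tested.

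Medians of sustentacular cells, tuft cells and ionocytes were closer to no change. Over 11 sustentacular genes the median was 0.21, and 0.08 without WT replicate 3, which had the lowest sum (6800 CPM against 9130 to 11200 CPM). Cyp2g1, an olfactory cytochrome P450, stood at 1830, 2120 and 1120 CPM in WT and 1890, 2340 and 2310 CPM in homo (0.37, SE 0.22). Trpm5 and Pou2f3, the channel and the master regulator of tuft cells, had values of 0.0073 and −0.03. Chat, the acetylcholine-synthesizing enzyme of the same cells, was below 1 CPM in all 6 libraries. Over 9 tuft cell genes the median was 0.0073, with values from −0.52 to 1.26. Of the 9, 4 reached a mean of 1 CPM and 1 was higher at an unadjusted edgeR p under 0.05, beside 0.779% of all genes tested. A 1.5-fold change was excluded for 3 of the 9, and the median limit was 2.84-fold, so larger changes of most tuft cell genes were not excluded. Over 8 ionocyte genes the median was −0.06, and −0.09 without WT replicate 3. Foxi1, the regulator of ionocytes, had −0.02, and Cftr, their chloride channel, −0.44 (SE 0.20), with 45.6 CPM in WT replicate 3 against 24.8 to 31.4 CPM in the other 5 libraries. Olfactory ensheathing glia and Schwann cells, which wrap the OSN axons, had a median of −0.02 over 12 genes.

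Cartilage was the list with the highest median. All 10 genes were higher in homo, with a median of 0.63, and 0.96 without WT replicate 3. None was called. At an unadjusted edgeR p under 0.05 there were 5, beside 0.779% of all genes tested, and 7 without WT replicate 3, beside 0.591%. The list was chosen with earlier results of these data known, and its genes are not independent of each other. These counts are therefore no test of the list. For 4 of the 10 every homo library lay above every WT library, beside 2.97% of all genes tested. Acan, the large aggregating proteoglycan of cartilage, stood at 38.2, 12.5 and 36.3 CPM in WT and 78.5, 47.1 and 42.7 CPM in homo (0.96, SE 0.38). Col9a1, a cartilage collagen, stood at 46.7, 34.9 and 45.0 CPM in WT and 84.9, 52.4 and 51.2 CPM in homo (0.57, SE 0.21). Col2a1, the main collagen of cartilage, ranged from 26 to 132 CPM in WT and from 74.7 to 354 CPM in homo, with overlapping libraries (1.27, SE 0.70). The summed level in homo was 141% of WT with a wide 95% interval (85.0% to 233%) and overlapping libraries. Its log2 difference was 0.72 within replicate number 1, 0.47 within number 2 and 0.28 within number 3. The het libraries held 949, 764 and 735 CPM, above the 452 to 719 CPM of the WT libraries. Lect1 and Clec3a, not on this list, had the smallest p-values of their direction without WT replicate 3 among the 16 genes named above, at edgeR p-values of 6.75e-05 and 4.94e-05 and edgeR adjusted p-values of 0.221 and 0.194. Lect1 stood at 13.7, 10.5 and 24.4 CPM in WT and 40.0, 29.0 and 28.8 CPM in homo. Clec3a stood at 5.44, 3.06 and 11.5 CPM in WT and 19.4, 14.7 and 16.1 CPM in homo. Both genes were picked for a small p in these same libraries, so they add no separate support. The amount of turbinate cartilage in each dissection was not tested.

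Medians of bone and fibroblast genes lay near 0. Over 11 bone genes the median was 0.0092 (−0.02 without WT replicate 3), and Ibsp and Sp7, genes of bone-forming cells, had 0.05 and 0.09. Col10a1, the collagen of hypertrophic cartilage at the border to bone, stood at 62.2, 40.2 and 125 CPM in WT and 107, 137 and 136 CPM in homo. Its value was 0.74 (SE 0.34) and 1.30 without WT replicate 3 (edgeR p 1.66e-04, edgeR adjusted p 0.466). Fibroblasts had a median of −0.04 over 10 genes. Col1a1 and Col1a2, the chains of type I collagen, had −0.06 and −0.02, with 5170 and 4910 CPM of Col1a1 in the replicates numbered 1 against 2490 to 3040 CPM in the others. Endothelium had −0.12 and without WT replicate 3 0.0053, and pericytes and smooth muscle 0.01 and 0.12. All 7 skeletal muscle genes had a value above 0, with a median of 0.54 and 0.28 without WT replicate 3, and none was called or had an unadjusted edgeR p under 0.05. Of the 7, 3 reached a mean of 1 CPM, and the limit of their median gene was 7.30-fold. Vomeronasal neurons had −0.16 over 5 genes. Olfactory bulb cells had −0.73 over 10 genes, and −0.78 without WT replicate 3. This median ranged from −1.36 to −0.08 over the alternatives. The summed level was 37.9, 43.4 and 39.5 CPM in WT and 43, 34.2 and 34 CPM in homo. It was 91.7% of WT in homo, with overlapping libraries. Of the 10 genes, 4 reached a mean of 1 CPM. At an unadjusted edgeR p under 0.05, 1 of them was lower, beside 2.67% of all genes tested, and 3 without WT replicate 3, beside 1.14%.

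Much of the value of the inflammation, interferon, neutrophil and T lymphocyte lists came from WT replicate 3. Inflammatory genes had a median of −3.59 over 12 genes, all lower in homo. Of the 12, 9 had an unadjusted edgeR p under 0.05, beside 2.67% of all genes tested that were lower at that limit. Without WT replicate 3 the median was −0.70, all 12 were still lower in homo and 0 of the 12 had such a p. Il1b, a cytokine of the acute response, stood at 1.23, 11.2 and 306 CPM in WT and 1.41, 9.18 and 1.15 CPM in homo. Tnf was at 28.4 CPM in WT replicate 3 and at 0.317 to 1.52 CPM in the other 5 libraries. WT replicate 2 and homo replicate 2 were the next highest for both cytokines. The summed level of the list was 2840 CPM in WT replicate 3, against 81.7 and 230 CPM in the other WT libraries and 73.5 to 182 CPM in homo, and a het library, replicate 3, held 506 CPM. The interferon list, of genes such as Ifit1 and Isg15, had a median of −1.74, with 10 of 12 genes lower at an unadjusted edgeR p under 0.05. Without WT replicate 3 the median was −0.34, with all 12 genes still lower in homo and 0 at such a p. In that list 1050 CPM stood in WT replicate 3 against 184 to 272 CPM in the other 5 libraries.

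Neutrophil genes had a median of −1.25 with all libraries and 0.79 without WT replicate 3. S100a8 and S100a9, the subunits of calprotectin, were at 135 and 397 CPM in WT replicate 3. In the other 5 libraries they ranged from 3.40 to 38.1 and from 9.66 to 82.5 CPM. Ltf, the lactoferrin gene, which glands express as well, held most of the summed level of this list in the WT libraries (3720 CPM in replicate 3) and was at 2720 CPM in WT replicate 3, 964 and 580 CPM in the other WT libraries and 651, 255 and 155 CPM in homo (−2.01, SE 0.67, and −1.13 without WT replicate 3). Macrophages had −0.40 and 0.04, T lymphocytes −1.32 and −0.15, erythroid cells 0.28 and 0.36, and B lymphocytes 0.11 and 0.66. Of the 8 B lymphocyte genes 6 were higher with all libraries and 8 without WT replicate 3. What set WT replicate 3 apart from the other libraries was not tested.

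Stress genes moved with the same library. Of 101 entries in the 7 stress lists, 28 were lower and 0 higher at an unadjusted edgeR p under 0.05. The shares of all genes tested were 2.67% lower and 0.779% higher. Without WT replicate 3 the numbers of entries were 0 and 0. Of the 28, 19 were those of the inflammation and interferon lists. The unfolded protein and integrated stress response list had a median of −0.13 over 21 genes, and −0.07 without WT replicate 3. Ddit3 and Atf4, transcription factors of that response, had 0.10 (95% interval −0.38 to 0.58) and −0.09 (−0.38 to 0.20). Hspa5, the chaperone of the endoplasmic reticulum, stood at 447, 613 and 734 CPM in WT and 429, 535 and 536 CPM in homo (−0.26, SE 0.19). Atf3, a factor of the same response, was at 20.6 CPM in WT replicate 3 and at 2.11 to 3.66 CPM in the other 5 libraries. A 1.5-fold change was excluded for 12 of the 21 genes, and for 15 without WT replicate 3.

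Heat shock genes had a median of −0.03, and −0.11 without WT replicate 3. The inducible Hspa1a stood at 4.86, 5.54 and 29.2 CPM in WT and 2.72, 4.52 and 2.49 CPM in homo. Every homo library lay below every WT library, which held for 2.71% of all genes tested. Its log2 fold change of −2.02 became −0.69 without WT replicate 3. The constitutive Hspa8 had 0.13. Oxidative stress genes had a median of −0.15 and −0.08 without that library. Gclm, which encodes a subunit of the enzyme limiting glutathione synthesis, had −0.04 with an interval from 0.857-fold to 1.10-fold, while Hmox1, which encodes heme oxygenase, was at 78.9 CPM in WT replicate 3 and at 12.9 to 19.4 CPM in the other 5 libraries. The p53 target and apoptosis list had a median of −0.10 and −0.05. Bbc3, which encodes the p53 target PUMA, had −0.10 (95% interval −0.71 to 0.50), and Cdkn1a, a cell cycle inhibitor, −0.17. For 10 of these 19 genes a 1.5-fold change was excluded, and for 14 a 2-fold change. Immediate early and activity genes had −0.33 and 0.05. S100a5, a calcium-binding protein of active OSNs, stood at 274, 351 and 222 CPM in WT and 241, 459 and 442 CPM in homo (0.43, SE 0.28).

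Signalling lists had medians close to 0, from −0.06 (Notch) to 0.11 (Hedgehog) over 7 lists and 77 entries. Without WT replicate 3 they ran from −0.09 (BMP and TGF-beta) to 0.06 (Hedgehog). None was called, 1 entry was higher and 1 lower at an unadjusted edgeR p under 0.05, and none was without WT replicate 3. Axin2, a feedback target of Wnt signalling, had 0.0090 (95% interval −0.37 to 0.39), and Id1, a target of BMP signalling, −0.05 (−0.27 to 0.18). Notch1, the receptor, had −0.03, and Hes5, its target, −0.58 (SE 0.36) at 2.06, 1.89 and 1.33 CPM in WT and 0.907, 0.933 and 1.67 CPM in homo. Dusp6, a target of FGF and ERK signalling, had −0.13 (−0.39 to 0.13), and Ptch1, the receptor and target of Hedgehog signalling, 0.21 (−0.06 to 0.47). Aldh1a1, a retinoic acid-synthesizing enzyme, had 0.12 and −0.15 without WT replicate 3. A 1.5-fold change was excluded for 43 of the 77 entries and a 2-fold change for 66. In the FGF and ERK list a 1.5-fold change was excluded for 10 of 11 genes, in which the widest limit was 1.58-fold for Etv4.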

How the data were processed

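Whole-MOE RNA was polyA-selected and made into strand-specific libraries. After mapping to mm10 with HISAT2 2.1.0, the authors counted reads per gene with featureCounts (Subread 1.6.2), and these raw counts, as deposited, were used here. The submitters' processing notes also name Trimmomatic 0.36 and DESeq2 1.20.0. The annotation release, the strand setting and the treatment of reads shared between genes are not given in the sources used here, so genes with close copies carry uncertain counts. The deposited normalized counts were not used. Groups came from the genotype labels.

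Raw counts of all 9 libraries were tested in edgeR (version 4.0.16, R version 4.3.3) by its quasi-likelihood method, after TMM scaling and with genotype as the factor, for the 19775 genes with at least 10 summed counts. A gene was called at a Benjamini-Hochberg adjusted p under 0.05 and a fold change over 1.5. Between libraries the common dispersion came to 0.0545. Intervals are 95% intervals of the fitted log2 fold change, and 133 genes with no count in a genotype had none. Intervals of summed CPM used the spread of log2 sums within the 3 genotypes. DESeq2 1.42.0 and limma-voom (limma 3.58.1) were alternatives. The code was tested on simulated data.

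The lists and the members were chosen with earlier results of these data known. The genes named are those outside the olfactory Taar genes called by edgeR or DESeq2, the 8 higher and 8 lower with the smallest p at a mean of at least 1 CPM, the first 3 genes of each list, and the member of each list with the largest change. Symbols that look like dates were not named. Gng13 and Ltf, and other members given for a wide interval or a single high library, were named after their values were seen. Coordinates are from GENCODE vM21 (GRCm38). No sequence is shown. A few list members are not reported here.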

Additional observations from a re-analysis of the deposited data

How the results depend on the processing

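Of 21 alternative fits, 20 were chosen beforehand with earlier results known and 1, the fit of the 6 WT and homo libraries less WT replicate 3, after seeing the data. The 4 called genes became 1 with limma-voom, 1 in the fit of the 6 WT and homo libraries and 0 in the added fit, and leaving out 1 library at a time gave 1 to 4. The fits of fewer libraries have fewer degrees of freedom. What lowered the count in limma-voom was not tested. Outside the olfactory Taar genes DESeq2 called 1 gene, Lrrc26, and each other alternative called 0. The 672 genes there at an unadjusted p under 0.05 became 430 in the fit of the 6 libraries, 253 in the added fit and 1309 with a batch term for replicate number 1, and ranged from 185 to 1394 with 1 library left out. WT and homo libraries of the same number correlated in their deviations from the group means at 0.532, 0.318 and −0.0834. Since the third pair was below 0.1, the shared numbers were not read as pairs. That pair holds WT replicate 3, which stood apart, so its value cannot show that the numbers share no batch. The main fit has no term for the replicate number. With the replicate block 1297 genes had an unadjusted p under 0.05 and 3 were called, all olfactory Taar genes. The count of genes with a 1.5-fold change excluded was 9926 in the report and 7978 to 12078 under the alternatives, and with a 2-fold change excluded it was 14092 and 12961 to 14893. The 16 genes with the smallest p-values kept their sign in each alternative. Of 464 list genes, 255 changed sign under at least 1 alternative, and 0 were called under any. List medians for mature OSNs ranged from 0.04 to 0.11 and for Bowman gland and secretory cells from −1.25 to −0.45. For cartilage they ranged from 0.40 to 0.96, for horizontal basal cells from −0.70 to −0.20 and for olfactory bulb cells from −1.36 to −0.08. Under filterByExpr no vomeronasal type 1 receptor gene was left and that list gave no value.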

Other observations

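Gene families outside the lists were read in the same fit, and no member of the 12 families was called. The odorant receptor genes, the largest of them, are described in the report with their median of 0.21, which ranged from 0.11 to 0.31 over the alternatives. Cytosolic ribosomal protein genes had a median log2 fold change of 0.0029 over 78 genes, with 59 for which a 1.5-fold change was excluded and 74 for which a 2-fold change was. Solute carrier genes had −0.02 over 304 genes. Collagen genes had −0.01 over 44 genes, 2 of them higher and 0 lower at an unadjusted edgeR p under 0.05. Among enzymes that clear odorants and foreign compounds, the median was 0.13 with all libraries and 0.05 without WT replicate 3 for 49 cytochrome P450 genes, 0.12 and 0.01 for 18 glutathione transferase genes, and 0.05 and −0.15 for 13 UDP-glucuronosyltransferase genes. None of these genes was higher at an unadjusted edgeR p under 0.05, and 1 cytochrome P450 and 1 glutathione transferase gene were lower.

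Among these families, keratin genes, the intermediate filaments of epithelia, had a median of −0.51 over 30 genes, 25 of them lower, and −0.63 without WT replicate 3, but 0.07 without WT replicate 1. Their summed level was 1000, 707 and 1090 CPM in WT and 835, 623 and 633 CPM in homo. BPI fold genes, secreted proteins of the airway and glands, had −0.32 over 14 genes and −0.12 without WT replicate 3 (0.08 in the fit of the 6 WT and homo libraries less WT replicate 3), with sums of 16600, 15600 and 9010 CPM in WT and 12600, 9680 and 9650 CPM in homo, so that WT replicate 3 was the lowest of the 6 libraries. MHC genes had −0.76 over 33 genes and −0.19 without WT replicate 3, and chemokine genes −1.46 over 30 genes and −0.36. WT replicate 3 held 1090 CPM of chemokine transcripts against 246 to 315 CPM in the other 5 libraries. Vomeronasal type 1 receptor genes summed to 1.29 to 6.18 CPM in the 6 libraries, while het replicate 3 held 26.7 CPM.

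Gfap, a glial filament gene on the olfactory bulb list, stood at 3.14, 4.42 and 12.1 CPM in WT and 2.27, 2.19 and 1.97 CPM in homo. Every homo library lay below every WT library, which held for 2.71% of all genes tested. Its log2 fold change was −1.61 (SE 0.46, edgeR adjusted p 1), and −0.84 without WT replicate 3. The bulb markers Gad1 and Slc32a1, on the same list, were at 3.34 and 0.247 CPM in WT replicate 2. In the other 5 libraries they were at or below 0.725 and 0.0737 CPM. Their part in the list median was not tested.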
